A study of Gallus gallus with 6 samples.

Results

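Growing leg feathers were compared with growing wing feathers of adult chickens across all genes that 2 deposited expression tables list. The comparison takes in 4 of the 6 samples of the series: leg feathers and wing feathers, with 2 labelled replicates each. The birds are wild-type domestic chickens that received no treatment, and the other 2 samples, from neck feathers, served to estimate the spread and are given as a point of orientation. The labels describe feather epithelium freed of its pulp and pooled over several feathers, whereas the published methods speak of the whole follicle or of dissected dermal papilla and pulp, so the cells in each sample are not settled by the sources. Replicate 1 of every region is a column of one table and replicate 2 a column of the other. Each table therefore holds 1 library per region, and every ratio of leg to wing was taken within a table. In the FPKM table each region's column is headed chicken with another number, and what is numbered is not stated. If the numbers stand for birds, region and bird cannot be told apart there.

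The first table gives whole numbers of an unstated unit, with a gene name and a locus for 6534 entries. The second gives FPKM, fragments normalized for gene length and library size, for 6534 gene symbols. After entries with several names, repeated names and a mean below 1 over the 3 regions were left out, 5339 genes had a ratio in replicate 1 and 4721 in replicate 2. Of these, 2138 had one in both tables, 3150 are listed in the first table alone, 2583 are listed in the FPKM table alone, and 51 are listed in both but averaged below 1 FPKM. The values of replicate 1 sum to 3051339 in leg and 1780292 in wing, of which the 10 highest entries made up 67.6% in leg and 40.7% in wing, and in FPKM they made up 31.5% in leg and 11.6% in wing. The typical gene was not at a ratio of 1 either, since the median log2 ratio of leg to wing was -0.21 in replicate 1 and -0.44 in replicate 2. Each ratio below is given as log2 of (leg + 1)/(wing + 1) less that median, so 0 is the typical gene of its table and 2-fold is a distance of 1 from it. Where a gene of both tables has 2 values for a region, the first is the value of replicate 1 and the second the FPKM of replicate 2. The number of sequenced fragments is unknown for both tables, and no counting interval is given.

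A feather grows from a follicle, in which epithelial cells around a mesenchymal papilla and pulp divide, fold into barb ridges, take up pigment from melanocytes and fill with keratin before they die. Wnt, BMP, FGF, Notch and hedgehog signals between epithelium and mesenchyme are known to pattern the branches. Feathers of different body regions differ in size, stiffness and branching, and Hox and T-box genes are known to mark where along the body a skin cell comes from.

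The labels of the FPKM libraries were compared with limb genes, and no library of replicate 1 was compared in this way. *TBX5*, a transcription factor of the forelimb, was listed at 0 FPKM in the leg library and at 1.15 FPKM in the wing library. *TBX4*, its hindlimb counterpart, was listed at 0.381 FPKM in the leg library and at 0 in the wing library. Neck was at 0 for both. These directions follow the labels, but both genes average below the minimum mean of 1, near the floor. *PITX1*, a hindlimb regulator in the embryo, went the other way, with 0.424 FPKM in leg and 3.05 FPKM in wing, and passed that minimum through wing alone. Such low values cannot decide whether the labels are right.

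The ratios of the 2 tables lay close together. Their robust SD over the shared genes was 0.46 for replicate 1 and 0.43 for replicate 2, against 0.21 for the difference between the tables, and 82.3% of shared genes had the same sign in both. The linear model of limma, with region and replicate as terms and an adjusted p-value of 0.05, called 588 genes higher in leg (27.5% of 2138) and 577 lower in leg (27%). At least 2-fold in both tables were 40 genes higher in leg (1.87%) and 58 lower in leg (2.71%), and each of these 98 genes passed the limma test. The labels do not say whether the 2 replicates are separate birds, or even separate RNA samples rather than the same RNA processed in 2 ways. The p-values therefore measure only the spread between these libraries, which may be technical, and n = 2 would not hold if each pair came from 1 RNA sample. The count of calls fell to 107 (49 higher, 58 lower) when the replicate block was dropped, a fit that counts the tables' difference in units as spread. It fell to 391 (202 higher, 189 lower) when each gene was tested with its own spread alone. With values as deposited and not centred, 129 genes were higher and 892 lower in leg, so the direction of a small change rests on the centring.

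**Figure D1:**
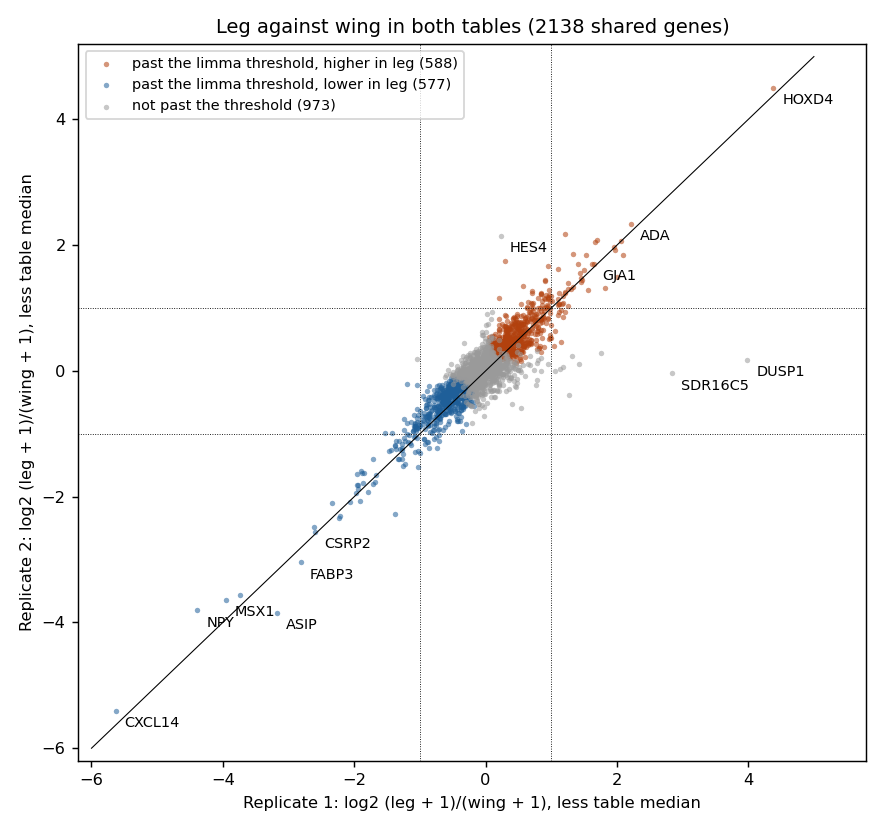
Log2 ratio of leg to wing, less the table's median, for the 2138 genes listed in both tables (x axis, replicate 1; y axis, replicate 2; dotted lines, 2-fold; solid line, equal ratios). The 588 genes called higher in leg and the 577 called lower lie along the line, while *DUSP1* and *SDR16C5* are far off it, high in leg in replicate 1 only.

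Of the genes with a ratio in the first table, 321 (6.01%) stood at least 2-fold higher in leg and 260 (4.87%) at least 2-fold lower. For the FPKM table the counts were 237 (5.02%) and 271 (5.74%). Genes listed in 1 table have no replicate, and their differences are values without a test.

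Large differences in summed values lay in stretches of chromosomes 25 and 27. Chicken chromosomes 25 and 27 are known to carry clusters of feather keratin genes, which encode the small structural proteins that fill barb cells, and chromosome 25 also carries other genes of the epidermal differentiation complex. The first table names most entries there by an Ensembl identifier and gives them no function, so they are described by position. Runs of at least 3 neighbouring entries that all stood 2-fold or more the same way were collected along each chromosome, a rule chosen after the values were seen.

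On chromosome 27, the longest run lower in leg, a direction that the rule fixes, held 30 entries from 534837 to 953991. Of these, 27 share a locus, 546684 to 919605, and 7 carry the same identifier, so they are not 30 separate genes. Their values sum to 1167 in leg and 30567 in wing, 26.2 times as much in wing, and to 31020 in neck. A second run of 7 entries, from 978272 to 1204188, sums to 824 in leg and 7258 in wing, with 5075 in neck. Between the start of the one and the end of the other lie 40 entries, and the 37 of them at least 2-fold lower in leg are those of the runs. That count and the stretch's median log2 ratio of -4.15 therefore follow from the rule. Over all 139 entries of chromosome 27, 40 (28.8%) were at least 2-fold lower in leg and 2 (1.44%) higher, with a median of -0.16. For all genes with a ratio in that table the shares were 4.87% and 6.01%. The rule does not use neck, and the sums of both runs were lower in leg than in neck as well.

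In the second table, 3 genes listed there alone were also far below wing and neck in leg. *FK27* stood at 13.3 FPKM in leg and 497 FPKM in wing, with 642 FPKM in neck. *FK21* stood at 3.26 FPKM in leg and 122.8 FPKM in wing, with 118 FPKM in neck. *LOC770639* stood at 32.1 FPKM in leg and 1310 FPKM in wing, with 1205 FPKM in neck. By name the first 2 are feather keratins; the RefSeq table matched none of the 3, so their place on a chromosome was not checked.

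Chromosome 25 held runs in both directions. Its 3 runs that were higher in leg, a direction that the rule fixes, held 8, 3 and 5 entries. They made up 44.5% of the summed values of replicate 1 in leg, 1.95% in wing and 41.7% in neck. The 156 entries of the chromosome outside them made up 5.19% in leg, 12.3% in wing and 6.30% in neck. The run of 8, from 959448 to 987425, sums to 246200 in leg and 14980 in wing. The run of 5, from 2056360 to 2072148, sums to 1097911 in leg and 18537 in wing, and 2 of its entries carry 98.7% of the leg sum. The entry at 2071960 to 2072148, which has no name, stood at 831345 in leg and 14095 in wing. The entry at 2065932 to 2066229 stood at 252386 in leg and 2357 in wing. Both together made up 35.5% of the summed values in leg and 0.924% in wing. Because the unit is unstated, these need not be shares of the sequenced fragments. The other 3 entries of that run sum to 14180 in leg and 2085 in wing. Neck was nearer to leg than to wing in both runs, with sums of 257751 and 1480790. An entry of similar height lay outside these chromosomes: ENSGALG00000046480, on an unplaced scaffold, stood at 229492 in leg and 1787 in wing, with 280306 in neck.

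A different stretch of the same chromosome was lower in leg. *EDMTFH* stood at 7 in leg and 1758 in wing, with 1382 in neck. *EDMTF4*, like it named for a protein of the epidermal differentiation complex, stood at 84 in leg and 3105 in wing, with 2337 in neck. A run of 8 further entries, from 2012829 to 2026934, sums to 1356 in leg and 4166 in wing. There neck was lowest, at 465, so the falls on chromosome 25 did not share one neck pattern. Over all 172 entries of the chromosome the median log2 ratio was -0.20, with 28 (16.3%) at least 2-fold higher in leg and 26 (15.1%) lower. For all genes with a ratio in that table the shares were 6.01% and 4.87%.

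**Figure D2:**
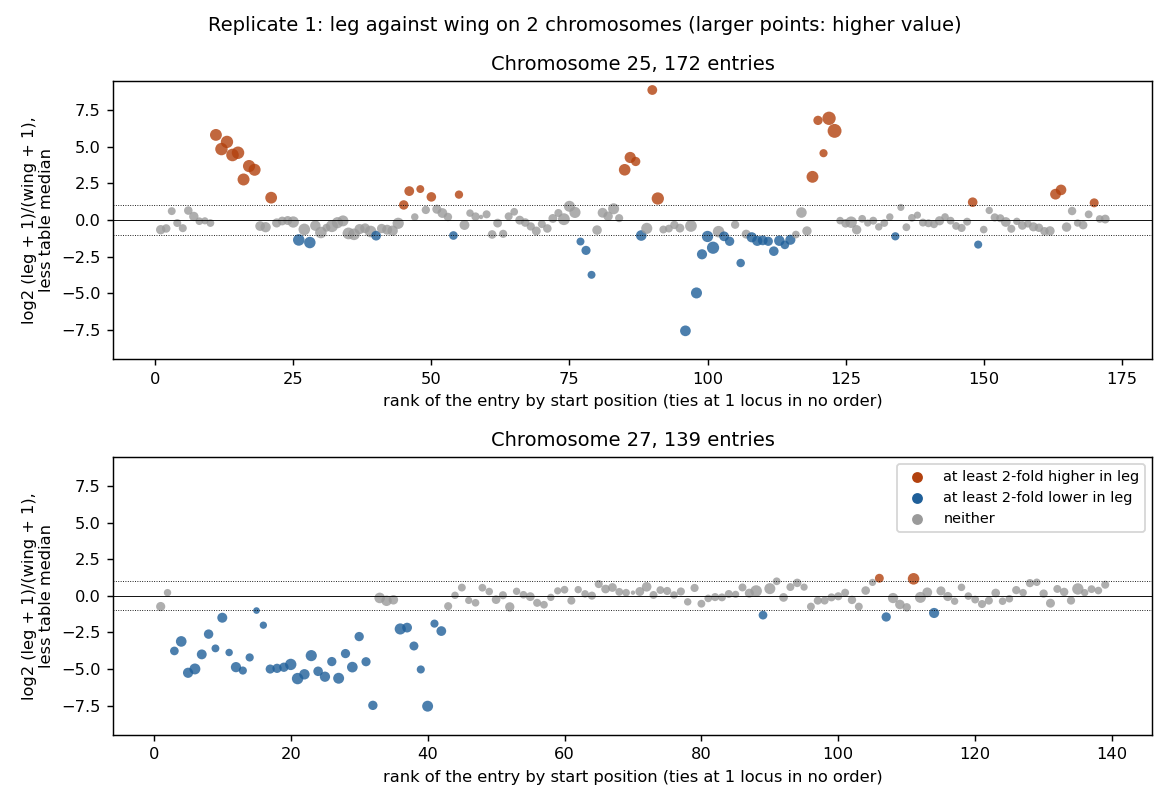
Log2 ratio of leg to wing in replicate 1, less the table's median (y axis), for the entries of chromosomes 25 and 27 ranked by start position (x axis), with larger points for higher values. Entries that share a locus, such as 27 on chromosome 27, have no order among themselves. The run of 30 entries lies near one end of chromosome 27 below 0, and chromosome 25 holds entries above, below and near 0.

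In the FPKM table, 19 of the genes that the RefSeq table places on chromosome 25 reached 5000 FPKM in leg or wing, of which 14 had a ratio above 0 and 5 below. That table gives no loci, so its genes were not matched to the entries of the runs. *F-KER*, named for feather keratin, stood at 31971 FPKM in leg and 2261 FPKM in wing, with 30066 FPKM in neck. *LOC100859191* stood at 31367 FPKM in leg and 738 FPKM in wing, 42.5 times as much in leg. Of the 62 second-table genes on that chromosome, 15 were at least 2-fold higher and 8 at least 2-fold lower in leg. The shares over all genes of that table were 5.02% and 5.74%. *LOC431316*, also on chromosome 25, was among those lower, with 2335 FPKM in leg and 8075 FPKM in wing. Near-identical keratin copies can share reads, so the split among single copies is uncertain.

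Among named genes in both tables, the largest rise was that of *HOXD4* (chromosome 7, 16326991 to 16343699), a homeobox gene of the HoxD cluster. Its value was 17 in the leg library and 0 in the wing library of replicate 1, and 46.1 FPKM in leg and 1.82 FPKM in wing in replicate 2. Neck was at 24 and 49.3 FPKM, so wing alone was low. The fitted log2 change was 4.46 ± 0.11 (SE, n = 2 libraries per region, limma adjusted p = 6.08e-06), and its size depends on the pseudocount because wing is listed at 0. *HOXB5* and *HOXD8*, listed in the second table only, were also higher in leg. *HOXB5* stood at 15.6 FPKM in leg and 1.75 FPKM in wing, and *HOXD8* at 20.4 FPKM in leg and 6.29 FPKM in wing.

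*SATB1*, a chromatin organizer counted with the positional genes, rose in leg, at 49 and 118 FPKM in leg against 22 and 43.5 FPKM in wing. The limb homeobox gene *DLX5* fell, at 23 and 32.4 FPKM in leg against 66 and 118 FPKM in wing. Of the 31 positional homeobox and T-box genes with a value, 6 were in both tables, of which 2 rose and 3 fell. Over all shared genes 27.5% rose and 27% fell. Of 31 in the FPKM table, 6 were at least 2-fold lower in leg and 4 at least 2-fold higher, against 5.74% and 5.02% of all genes of that table. Among the 6 were the mesenchymal regulators *PRRX1* (1.24 FPKM in leg, 11.04 in wing) and *PRRX2* (2.44 FPKM in leg, 12.1 in wing). *PITX1*, also among the 6, passed the minimum mean of 1 only through wing, so it could count only as lower in leg. The direction was therefore mixed, with the Hox genes named here higher in leg.

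The other large rises in leg included *ADA*, *AP1S3* and *GJA1*. *ADA*, adenosine deaminase, stood at 35 and 71.2 FPKM in leg and at 8 and 18.4 FPKM in wing (log2 change 2.29 ± 0.07). *AP1S3*, a subunit of a clathrin adaptor, stood at 28 and 67.5 FPKM in leg and at 7 and 21.1 FPKM in wing (2.09 ± 0.08). *GJA1*, connexin 43, which forms gap junctions between neighbouring cells, was the highest in FPKM of the 12 largest rises, with 3236 and 7159 FPKM in leg and 1196 and 2989 FPKM in wing (1.69 ± 0.13). The rule that picked these 3 genes requires leg above wing in both tables. Neck, which the rule does not use, lay near leg in all 3. Others of the 12 were *PLEKHA2*, *AK1*, *COTL1*, *SLC38A1*, *PTGES*, *PEAK1* and *BAG5*, with log2 changes from 1.70 to 1.98. *SLC38A1* is a glutamine transporter, *PTGES* makes prostaglandin E and *COTL1* binds actin filaments.

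The largest fall was that of *CXCL14* (chromosome 13, 15407660 to 15414929), a chemokine of skin. Its value was 1 in leg and 114 in wing in replicate 1, and 2.997 FPKM in leg and 229 FPKM in wing in replicate 2 (log2 change -5.50 ± 0.10, limma adjusted p = 3.48e-06). *NPY*, neuropeptide Y, was at 3 and 6.38 FPKM in leg and at 96 and 140 FPKM in wing (-4.08 ± 0.12). *MSX1*, a homeobox gene that responds to BMP, was at 1 and 1.91 FPKM in leg and at 35 and 48.6 FPKM in wing (-3.79 ± 0.15). For each of *CXCL14*, *NPY* and *MSX1*, neck lay close to leg and far below wing.

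*MGP*, a matrix protein that limits calcification, fell by 3.63 on the log2 scale and *FABP3*, a fatty acid carrier, fell by 2.91. *CSRP2*, a LIM-domain protein, was the highest in FPKM of the 12 largest falls, with 177 and 296 FPKM in leg and 1240 and 2373 FPKM in wing. *VDAC1*, the channel of the outer mitochondrial membrane, *TFAP2B*, a transcription factor, *HPGDS*, which makes prostaglandin D, and *SMS*, spermine synthase, had log2 changes from -2.53 to -2.20. *ASIP* and *SLC45A2*, both of pigmentation, complete the 12.

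**Figure D3:**
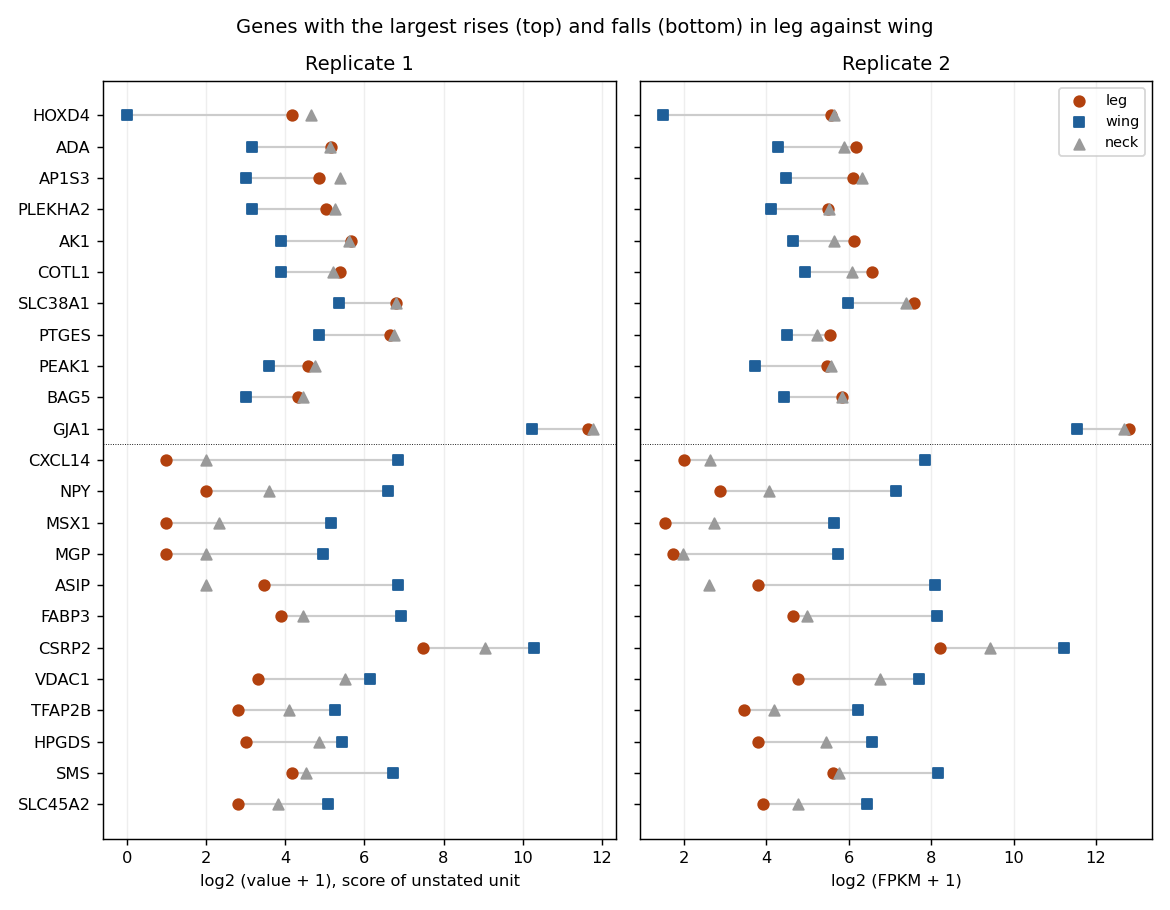
Levels of 11 of the 12 genes with the largest rises and of the 12 with the largest falls in leg against wing, as log2 (value + 1) in each library of both tables (circles, leg; squares, wing; triangles, neck). In the upper genes leg and neck lie close together and wing stands apart on the low side. In the lower genes wing is highest, and neck mostly lies between leg and wing.

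Of the 40 genes at least 2-fold higher in leg in both tables, neck was nearer to leg than to wing in both tables for 36 and nearer to wing in both for 0. Of the 58 lower in leg, neck was nearer to leg in both tables for 41 and nearer to wing in both for 3. Most of these genes therefore had neck nearer to leg than to wing, whereas in the chromosome 27 runs leg was below both. The measure compares only the distances of neck to leg and to wing, on values that were not centred. It also counts genes with leg between the other regions, such as *COL1A2*, at 9 in neck, 32 in leg and 77 in wing in replicate 1.

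Most pigment genes were lower in leg. Melanocytes make melanin from tyrosine and pass it to barb cells, and *ASIP*, agouti signalling protein, is known to shift them from dark to yellow pigment. *ASIP* stood at 10 and 13.0 FPKM in leg and at 114 and 274 FPKM in wing (log2 change -3.50 ± 0.17, limma adjusted p = 4.26e-05). *TYR*, tyrosinase, stood at 17 and 36.03 FPKM in leg and at 77 and 209 FPKM in wing. The transporter *SLC45A2* and the melanosome receptor *GPR143* fell by 2.06 and 1.84 on the log2 scale.

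Of the 8 pigment and melanocyte genes in both tables, 5 fell and 2 rose, and 4 were at least 2-fold lower in both. The shares over all shared genes were 27%, 27.5% and 2.71%. In the first table alone *MLANA* stood at 104 in leg and 575 in wing, *GPNMB* at 212 in leg and 628 in wing, and *PMEL* at 17 in leg and 62 in wing, each a gene of the melanosome. The list's median log2 ratio was -1.69 over 12 genes in replicate 1 and -0.27 over 15 in replicate 2. The genes that rose were *KITLG*, the ligand of the melanocyte receptor KIT, at 83 and 169 FPKM in leg against 58 and 118 FPKM in wing, and, by little, *KIT* itself, whose direction turned with values as deposited. *TYRP1*, an enzyme of black melanin synthesis, stood out against the rest, at 20.2 FPKM in leg and 0.203 FPKM in wing in the second table, with 13.7 FPKM in neck. Fewer melanocytes and less RNA per melanocyte cannot be told apart in such bulk samples.

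The markers of other cell types moved with several of these results. Collagens were lower in leg, with 5 of 5 in both tables past the test, against 27% falling over all shared genes. *COL17A1*, among the 5, is also on the basal keratinocyte list, so the collagens are not markers of mesenchyme alone. In the FPKM table all 15 collagens had a ratio below 0. Among them, *COL8A1* stood at 0.705 FPKM in leg, 4.05 FPKM in wing and 0.669 FPKM in neck. *COL8A1* passed the minimum mean of 1 only through wing, so it could count only as lower in leg. *COL1A2* stood at 32 and 39.6 FPKM in leg and at 77 and 158 FPKM in wing (log2 change -1.26 ± 0.14). The collagen values sum to 217 in leg and 530 in wing in replicate 1, and to 303 FPKM in leg and 824 FPKM in wing in replicate 2. Neck was lowest, at 94 and 108 FPKM, so leg lay between the other regions.

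The wider list of mesenchyme and dermal matrix genes had 9 members in both tables, of which 7 fell and 0 rose. These 7 include *COL1A2*, *COL3A1* and *COL6A2*, already counted as collagens, so the counts of the lists overlap. Over all shared genes 27% fell and 27.5% rose. The medians were -0.49 over 10 genes in replicate 1 and -0.54 over 31 in replicate 2. Its values sum to 428 in leg and 698 in wing in replicate 1, and to 1123 FPKM in leg and 2082 FPKM in wing in replicate 2, with 220 and 492 FPKM in neck. *DCN*, decorin, the highest of these in FPKM, stood at 94 and 305 FPKM in leg and at 149 and 482 FPKM in wing. Of 9 muscle and actomyosin genes with a value, the 4 in both tables, *CALD1*, *MYL9*, *TPM1* and *TPM2*, fell, with log2 changes from -1.14 to -0.37. Of the 5 in the second table alone, *MYLK* (12.6 FPKM in leg, 7.99 in wing) and *TNNI2* (2.03 FPKM in leg, 0.594 in wing) stood at least 2-fold higher in leg relative to the table's median. *TNNI2*, at 1.37 FPKM in neck, passed the minimum mean of 1 only through leg. No blood or endothelial gene of the list had a ratio in replicate 1. Among 11 in replicate 2, 4 were at least 2-fold lower in leg and 0 higher, against 5.74% and 5.02% of all genes of that table. The endothelial factor *SOX18* was among them, at 2.94 FPKM in leg and 13.1 FPKM in wing. So was the globin gene *HBAD*, at 0.372 FPKM in leg, 3.74 FPKM in wing and 0.234 FPKM in neck. *HBAD* passed the minimum mean of 1 only through wing, so it could count only as lower in leg. Leukocyte genes in both tables had no one direction, with 2 of 5 higher, 2 lower and medians of 0.29 over 7 genes and -0.01 over 25. Of the 25 in the FPKM table, 4 were at least 2-fold higher in leg, among them *CCR7* and *CD3D*, and 1, *CXCL14*, lower. The shares over all genes of that table were 5.02% and 5.74%. The part of mesenchyme and vessels in the differences of secreted factors described next was not tested.

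Of 8 basal keratinocyte and basement membrane genes in the second table, 6 had a ratio below 0. Of the 3 in both tables, 1 fell and 2 were not past the test, against 27% falling over all shared genes. *KRT14*, the keratin of dividing basal cells, stood at 281 FPKM in leg and 972 FPKM in wing in the second table. *COL17A1*, which anchors basal cells to the basement membrane, fell by 0.82 on the log2 scale. Of the 26 shared cell cycle and DNA replication genes, 4 rose and 7 fell, with none at least 2-fold in both. Over all shared genes, 27.5% rose and 27% fell, so the falls were near that share.

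**Figure D4:**
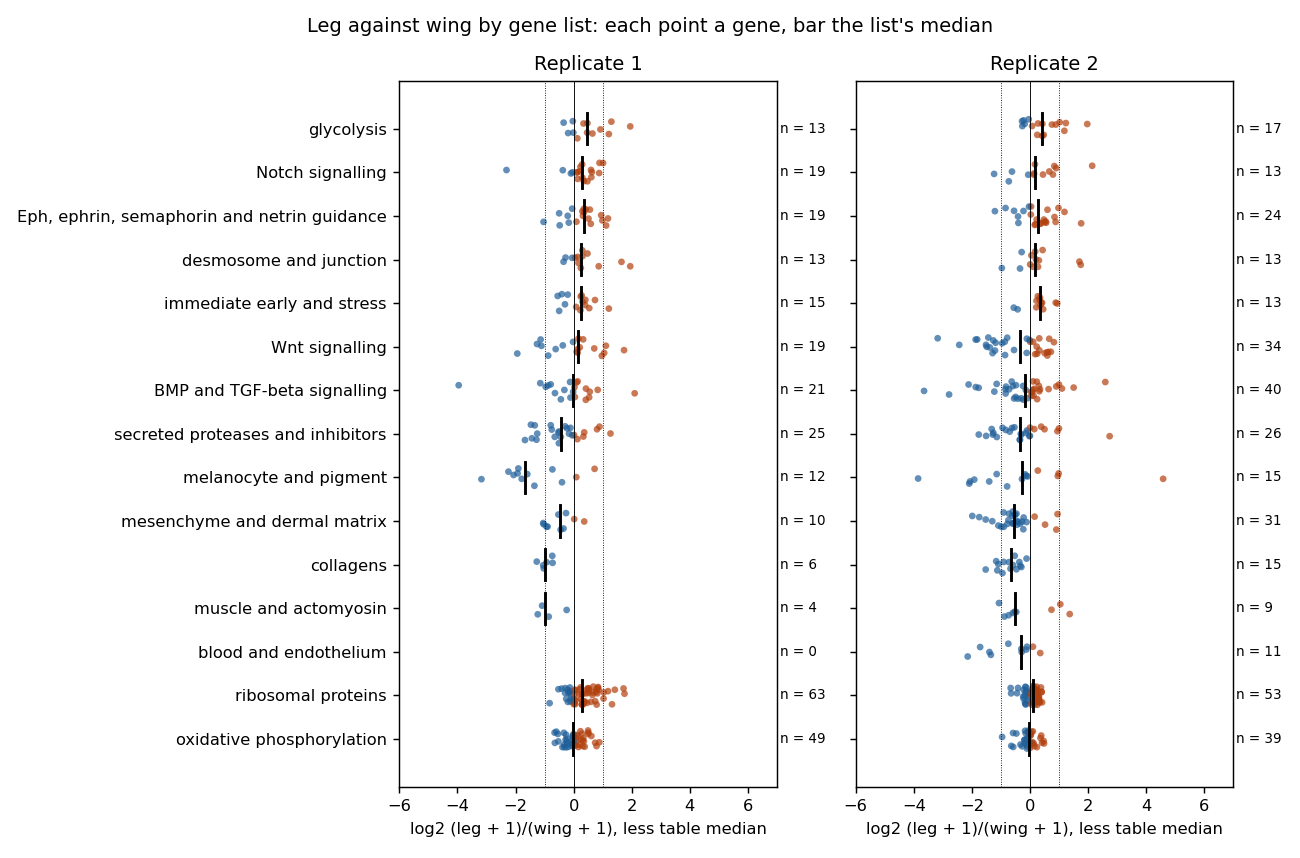
Log2 ratio of leg to wing, less the table's median, for the members of 15 gene lists in replicate 1 (left) and replicate 2 (right), with each list's median as a bar and 2-fold as dotted lines. Pigment genes, collagens and secreted proteases lie mostly below 0 in both tables, glycolysis genes mostly above, and oxidative phosphorylation close to 0.

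In the FPKM table, many Wnt pathway genes were lower in leg, whereas the first table had no one direction. Wnt ligands act through Frizzled receptors and beta-catenin, and secreted antagonists of the SFRP, DKK and WIF families limit their reach. Of 34 Wnt pathway genes in the FPKM table, 12 were at least 2-fold lower in leg and 0 were 2-fold higher, against 5.74% and 5.02% of all genes. *FRZB*, an antagonist, stood at 1.34 FPKM in leg and 27.8 FPKM in wing. The ligand *WNT7A* stood at 1.37 FPKM in leg and 16.4 FPKM in wing, and *SFRP2*, an antagonist, at 1.01 FPKM in leg and 8.62 FPKM in wing. With neck at 0.668 FPKM, *SFRP2* passed the minimum mean of 1 only through wing, so it could count only as lower in leg. *WNT3A*, *WNT4*, *SFRP1*, *DKK3*, *FZD4* and *TCF7L2* were also 2-fold lower in the FPKM table.

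Of the 14 Wnt genes in both tables, 4 rose and 5 fell, against 27.5% and 27% of all shared genes. *APCDD1*, a membrane inhibitor of Wnt signalling, stood at 8 and 20.3 FPKM in leg and at 39 and 105 FPKM in wing (log2 change -1.89 ± 0.07, limma adjusted p = 1.65e-05). *WLS*, needed for Wnt secretion, *WNT11*, *WIF1* and *FZD9* fell by 0.86 to 1.37. The genes that rose were *FZD1*, *FZD6*, *WNT5B* and *AXIN2*, of which only *FZD1* was still past the test with values as deposited, where *AXIN2* turned its direction. *WNT16* and *DVL1*, in the first table alone, were higher in leg, *WNT16* at 22 in leg and 7 in wing and *DVL1* at 40 in leg and 21 in wing. The median of the pathway was 0.14 over 19 genes in replicate 1 and -0.33 over 34 in replicate 2, so the pathway as a whole had no single direction.

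Of the 18 BMP and TGF-beta genes in both tables, 3 rose and 7 fell, against 27.5% and 27% of all shared genes. The medians were -0.02 over 21 genes in replicate 1 and -0.19 over 40 in replicate 2. BMP ligands act through paired receptors and SMAD proteins. *BMP4* stood at 3.53 FPKM in leg and 25.6 FPKM in wing, *BMP5* at 3.14 FPKM in leg and 37.7 FPKM in wing, and the antagonist *GREM1* at 1.40 FPKM in leg and 10.9 FPKM in wing, each in the second table alone. The target genes *MSX1*, *ID2*, *ID3* and *SMAD6* fell in both tables, *ID2* at 50 and 106 FPKM in leg against 114 and 238 FPKM in wing. *BMPR1A*, a BMP receptor, rose, at 22 and 66.7 FPKM in leg against 14 and 45.0 FPKM in wing. *BMPR2* stood at 71.3 FPKM in leg and 33.7 FPKM in wing in the second table, and *SMAD9*, a signal transducer, at 13.8 FPKM in leg and 2.34 FPKM in wing. The activin receptor *ACVR2A* fell by 0.45.

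In the FGF list, the receptor *FGFR3* fell, at 9 and 27.5 FPKM in leg against 37 and 101 FPKM in wing. In the second table the carrier *FGFBP2* stood at 8.38 FPKM in leg and 89.7 FPKM in wing, and the mesenchymal ligand *FGF7* at 5.03 FPKM in leg and 18.4 FPKM in wing. *FGF22*, in the first table alone, was higher, at 27 in leg and 10 in wing, and the EGF receptor ligand *AREG* rose, at 47 and 128 FPKM in leg against 28 and 83.7 FPKM in wing. Over the 11 members in both tables, 3 rose and 1 fell, against 27.5% and 27% of all shared genes, so the rises were near that share.

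Notch and Eph receptors carry signals between touching cells. Of 10 Notch pathway genes in both tables, 5 rose, among them *NOTCH1*, *NOTCH2*, *NCSTN* and *RFNG*, and 1, *LFNG*, fell. The shares over all shared genes were 27.5% and 27%. With values as deposited 3 Notch genes were higher and 1 lower. *NOTCH2* stood at 26 and 48.2 FPKM in leg and at 16 and 34.8 FPKM in wing. In the first table alone, the target genes differed among themselves, with *HEY1* at 3 in leg and 22 in wing and *HEYL* at 53 in leg and 30 in wing. Of 12 Eph, ephrin, semaphorin and netrin genes, 7 rose and 2 fell, led by *EPHA1* at 99 and 183 FPKM in leg against 50 and 109 FPKM in wing. With values as deposited 2 of that list were higher and 2 lower.

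*SHH*, the hedgehog ligand of the barb ridges, stood at 81 and 127 FPKM in leg and at 61 and 127 FPKM in wing. Its log2 change of 0.55 ± 0.09 was past the limma test (adjusted p = 0.00344), as was that of its receptor *PTCH1*, and neither was past it with values as deposited. Of the 3 retinoid genes in both tables, 2 rose and 0 fell, against 27.5% and 27% of all shared genes. The list's medians were 0.07 over 6 genes in replicate 1 and 0.11 over 9 in replicate 2. *CRABP1*, a carrier of retinoic acid, and *DHRS3*, a retinal reductase, rose by 0.83 and 0.91, while *CRABP2*, in the first table alone, stood at 17 in leg and 39 in wing. *ALDH1A3*, which makes retinoic acid, stood at 53.5 FPKM in leg and 9.18 FPKM in wing, with 15.1 FPKM in neck, in the second table alone, and *RARRES2*, a retinoid-responsive gene, at 20.2 FPKM in leg and 87.8 FPKM in wing.

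Secreted proteases and their inhibitors were mostly lower in leg. Of 12 in both tables, 8 fell and 1 rose, against 27% and 27.5% of all shared genes. At least 2-fold lower in both were 4, against 2.71% of all shared genes. These were *CTSK*, a collagen-cleaving cathepsin, *MMP2*, a matrix metalloprotease, and the serpins *SERPINE2* and *SERPINF1*. *SERPINE2* was the highest of them in FPKM, at 70 and 204 FPKM in leg and 227 and 676 FPKM in wing. *TIMP3*, a metalloprotease inhibitor, rose by 0.96. *SPINK5*, an inhibitor of skin proteases, stood at 178 FPKM in leg and 35.4 FPKM in wing in the second table, and *SERPINF2*, an inhibitor of plasmin, at 51 in leg and 24 in wing in the first.

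Most glycolysis genes were higher in leg. Of 11 in both tables, 6 rose and 1, *PDK1*, fell, against 27.5% and 27% of all shared genes. The medians were 0.46 over 13 genes and 0.42 over 17. *GPI*, glucose-6-phosphate isomerase, stood at 161 and 422 FPKM in leg and at 80 and 243 FPKM in wing (log2 change 1.24 ± 0.09, limma adjusted p = 0.000145). *PFKP*, phosphofructokinase, rose by 0.99. The gluconeogenic enzyme *FBP1*, outside the list and named here after its value was seen, fell by 1.94. With values as deposited, 3 members were higher and 2 lower, and the second-table median became -0.02. Among the lipid genes, 9 of 21 shared members rose and 5 fell, and with values as deposited 3 were higher and 8 lower. The fatty acid elongases *ELOVL5* and *ELOVL7* rose by 1.34 and 1.06 and *ELOVL4*, counted with the differentiation genes, fell by 0.27, while *SQLE* and *INSIG1*, of sterol synthesis and its control, fell by 0.75 and 0.92. The oxidative phosphorylation genes had 3 of 25 higher and 6 lower, and their medians were -0.01 over 49 genes in replicate 1 and -0.03 over 39 in replicate 2.

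Desmosome and junction genes lay mostly a little above 0, 10 of 13 in each table, with medians of 0.25 in replicate 1 and 0.18 in replicate 2. With values as deposited, 2 of the shared junction genes were higher and 1 lower. Epidermal differentiation genes had medians of -0.06 over 16 genes in replicate 1 and -0.05 over 9 in replicate 2. Of 6 desmosome and junction genes in both tables, 3 rose, *GJA1*, *GJB2* and *CLDN1*, and 0 fell, against 27.5% and 27% of all shared genes. *CLDN1* was among those whose direction turned with values as deposited. *GJB2*, connexin 26, differed between tables, at 101 and 191 FPKM in leg and at 95 and 76.7 FPKM in wing. *TJP3*, a tight junction protein, was at 19 in leg and 5 in wing in the first table. *S100A8*, a calcium-binding protein of stressed skin, was at 1 in leg and 30 in wing, with 27 in neck.

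Of 11 shared immediate early and stress genes, 9 rose and 2 fell, against 27.5% and 27% of all shared genes. *FOS* rose the most, at 27 and 29.4 FPKM in leg against 13 and 20.6 FPKM in wing. The others changed by less than 2-fold, and with values as deposited the list had 2 higher and 2 lower.

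Several large groups had a smaller share of calls, rises and falls together, than all genes, a difference that was not tested. Of 44 shared ribosomal protein genes, 4 rose and 2 fell, of 17 proteasome genes 2 rose and 5 fell, and of 45 splicing and RNA binding genes 5 rose and 9 fell. Over all shared genes 27.5% rose and 27% fell, and the proteasome falls were near that share. Ribosomal proteins also showed where the tables part: 7 of 63 were at least 2-fold higher in leg in replicate 1 and 0 of 53 in replicate 2. The shares over all genes of these tables were 6.01% and 5.02%.

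The tables disagreed most for *DUSP1*, a phosphatase that is induced within minutes by stress and growth factors. It stood at 423 in leg and 30 in wing in replicate 1 and at 47.8 FPKM in leg and 57.7 FPKM in wing in replicate 2. *SDR16C5*, a retinol dehydrogenase, stood at 253 in leg and 40 in wing in replicate 1 and at 10.9 FPKM in leg and 15.6 FPKM in wing in replicate 2. Neither passed the limma test (adjusted p = 0.0920 and 0.127). In the opposite sense, *HES4* was at 61 in leg and 60 in wing in replicate 1, where it is listed as hairy1, and at 56.3 FPKM in leg and 16.6 FPKM in wing in replicate 2 (adjusted p = 0.0560).

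Among the genes of 1 table with a value of at least 10 in leg or wing, the largest ratio in the second was that of *AVR2*, an avidin-related gene, at 211 FPKM in leg and 0.473 FPKM in wing, with 710 FPKM in neck. *SCG3*, a protein of secretory granules, was among the 5 lowest, at 1.56 FPKM in leg and 44.4 FPKM in wing, with 8.87 FPKM in neck. In the first table *BlSK1* was listed at 0 in leg and 450 in wing, with 228 in neck. Of the 5 highest and 5 lowest in that table, 9 had only an Ensembl identifier: ENSGALG00000033193 was at 214 in leg and listed at 0 in wing and neck, and ENSGALG00000030082 was listed at 0 in leg and at 1857 in wing, with 2852 in neck. A value of 0 beside such high values in a table without counts may be a failed estimate, so no fold is given.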

How the data were processed

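RNA-seq of feathers from 3 regions was read from 2 deposited tables. The deposited values are scores without decimals in the first, of unstated unit and normalization and not treated as counts, and FPKM in the second. The submitters' processing notes list TopHat2 2.1.0, Cufflinks 2.2.1 and galGal4. The first table names no build and lists entries on chromosome 33, so the build of its loci is not settled. Its coordinates are given as deposited. The 1 column with the authors' mean over regions was not used. Older gene names were matched through the RefSeq table of GRCg7b, used for names and chromosomes only, in which 4003 and 6345 names were found. Names damaged by date conversion, 10 and 13, were left out.

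Log2 (value + 1) of the 2138 shared genes that average 1 or more in each table, centred on each library's median, was fitted in limma 3.58.1 (R 4.3.3; trend, region and replicate block, 6 libraries), with Benjamini-Hochberg adjustment. Errors are limma's standard errors. This leaves 2 residual degrees of freedom a gene, to which limma added 4.23 prior ones. The replicate number is the table, from the sample labels, so the block takes out the difference in units: deviations of same-numbered libraries correlated at 0.92 for leg and wing. The fit was also run on simulated data with independent noise of the same spread for every gene. The libraries here need not meet these conditions, so that run does not check the calls. Python 3.11.15, pandas 2.3.3, numpy 2.4.6 and matplotlib 3.10.9 were used for the rest.

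Genes named are the 12 largest rises and falls past the test and at least 2-fold in both tables, the 5 largest each way in 1 table alone at a value of at least 10, of which some are named, and members of gene lists; others are stated as chosen afterwards. The comparison and the lists were chosen with earlier results of these data known. The list of feather keratins could not be matched, since the reference gives no gene descriptions. Alternatives were another scaling, pseudocount, filter, threshold, name match, block, set of libraries and spread. Results for 2 genes are not reported here.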

Additional observations from a re-analysis of the deposited data

How the results depend on the processing

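Centring, the replicate block and the fold threshold moved the counts. With values as deposited, the genes at least 2-fold in both tables numbered 151 (18 higher and 133 lower in leg) in place of 98 (40 and 58), the FPKM table had 801 such genes (103 and 698) in place of 508 (237 and 271), and the other had 633 (217 and 416) in place of 581 (321 and 260). Of the 1165 genes past the limma threshold, 703 were kept the same way with values as deposited and 153 had the opposite sign. The prior degrees of freedom of that fit were infinite, in place of 4.23. Its calls therefore differ from the main ones by the estimate of the spread as well as by the centring. Without the replicate block, where the tables' difference in units counts as spread, 107 passed, all of them among the 1165. With each gene's own spread 391 passed, of which 374 were among the 1165. At an unadjusted p of 0.05 these fits gave 464 and 977. A 1.5-fold threshold gave 318 genes in both tables, 1438 in the first and 1251 in the second, and a 4-fold threshold gave 15, 143 and 92. A minimum mean of 10 left 293 second-table genes at least 2-fold. One table alone gave 146 to 147 of the shared genes at least 2-fold. The other alternatives kept each count within 1.5 times. All 24 genes of the 12 largest rises and falls kept their direction in every fit, 20 of them past the threshold without the block and 22 with their own spread. The limma test could not be run without replicate 1 or 2, which leaves no residual degrees of freedom. The depth of the libraries is unknown.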
